A study of Mus musculus with 12 samples.

Results

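The genes described here encode NRF2 (gene Nfe2l2), its inhibitor KEAP1, and enzymes of the glutathione and thioredoxin systems, of drug and aldehyde detoxification, of NADPH supply, and of peroxide and superoxide removal. There were 37 of them, listed by name and function, and each symbol matched 1 of the 55487 Ensembl genes in the count table. They were measured by RNA sequencing of C2C12 cells, a mouse myoblast line that fuses into multinucleated myotubes when serum is lowered. All cultures spent 5 days in medium with 2% horse serum to form myotubes. For the next 24 h the medium held either 4% STEM (6 libraries, numbered 7 to 12) or 4% horse serum (6 libraries, numbered 1 to 6). STEM is a cell-free product made of what human embryonic stem cells secrete once they have been taken part of the way to a differentiated state. It took the place of horse serum in the medium, so adding the one and removing the other cannot be told apart. C2C12 is 1 immortalised line, grown here without other cell types, and is a model of muscle fibres in culture only. The labels do not say that the libraries came from separate cultures, so the p-values measure only the spread between these libraries, which may be technical.

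NRF2 is a transcription factor that KEAP1 holds in the cytoplasm and passes to CUL3-RBX1 for degradation. When oxidants or electrophiles modify KEAP1, NRF2 escapes, pairs with a small MAF protein and binds antioxidant response elements in the promoters of its target genes. This control acts mainly on NRF2 protein, so mRNA levels of Nfe2l2 and Keap1 do not report it. In skeletal muscle, contracting fibres produce superoxide and hydrogen peroxide, and the enzymes described here remove them or supply the glutathione and NADPH that removal consumes.

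Depth was 13285472 to 18254882 counts per horse serum library (median 15533472) and 14909485 to 24536264 per STEM library (median 15740424). Levels are given as CPM, a gene's counts scaled to a common library size after TMM normalization. Fold changes are log2 of STEM over horse serum from edgeR's quasi-likelihood fit, and adjusted p-values are that test's, corrected by Benjamini-Hochberg over all genes tested. A gene is called higher or lower at an adjusted p of 0.05 or less. Horse serum library 6 stood apart from the other 5 horse serum libraries, so fold changes and calls of the genes are given with it and without it. Its 17 myotube markers (Myog, Mymk, Ttn, Acta1 and others) summed to 12884 CPM, against 21718 to 24293 in horse serum libraries 1 to 5 and 19113 to 25418 with STEM, and all 17 were below the other horse serum libraries. Its 8 proliferation markers summed to 1286 CPM, against 802 to 1174 in the other horse serum libraries and 602 to 752 with STEM. Among the antioxidant genes, 20 of 37 (54.1%) were above all of horse serum libraries 1 to 5 in library 6 and 11 (29.7%) were below all of them, beside 35.8% and 33.1% of all genes tested. The part of these differences in the results was not tested.

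Each of the 17 myotube markers was detected in every library. Markers of other cell types were low. The 8 macrophage markers summed to 3.13 to 6.00 CPM over all libraries, with Adgre1 and C1qa at 0 in every library, the 4 endothelial markers to 0.353 to 1.001 CPM with Kdr at 0, and the 4 adipocyte markers to at most 0.274 CPM with Plin1 and Cidec at 0. The 5 markers of undifferentiated or reserve cells (Pax7, Myf5, Cd34, Sdc4, Vcam1) summed to 452 to 513 CPM in horse serum libraries 1 to 5, 336 in library 6 and 252 to 311 with STEM, and 4 of the 5 were called lower with STEM, with and without library 6. Pax7 was at 26.0 to 37.1 CPM in horse serum and 26.2 to 42.1 CPM with STEM, and Sdc4 at 135 to 261 and 100 to 156. For Myf5, Cd34 and Vcam1 all STEM libraries were below all horse serum libraries. Of the 8 proliferation markers, 7 were called lower with STEM with all libraries and 6 without library 6. Of the 17 myotube markers, 3 were called higher and 2 lower with all libraries, and 3 higher and 9 lower without library 6. Over all genes tested, 18.9% were called higher and 17.4% lower with all libraries, and 26.3% and 24.5% without library 6. The part of these marker differences in the results below was not tested. In bulk RNA, fewer cells of a type and less RNA per cell cannot be told apart.

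The antioxidant response element is commonly written as TGACNNNGC, where N is any base. Its letters, on either strand, were searched in the RefSeq promoter windows (GRCm38.p6, 250 bases before to 50 after each start site). The table held 39 windows for 30 of the 37 genes. Of these windows, 11 (28.2%), each of a different gene, held the letters, against 4071 of 32851 windows (12.4%) in the whole table. The 7 genes that were not matched were Gclc, Gsr, Hmox1, Gsta4, Abcc1, Prdx6 and Sod3. A match describes letters only and does not show a binding site. The AP-1 letters TGACTCA or TGAGTCA, which are bound by JUN and FOS proteins, were present in 6 of the 39 windows (15.4%) and in 5.20% of all windows.

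The stretches below are those of the 8 genes called in either fit whose letters began before the start site. They are shown because these genes differed in RNA level and because the search left 3 core bases free, so the elements themselves vary. Capitals mark the matched letters. Each runs 5′ to 3′ along the gene's own strand, and GCNNNGTCA is the same element read from the other strand.
Gclm, chr3:122245388-122245466, plus strand: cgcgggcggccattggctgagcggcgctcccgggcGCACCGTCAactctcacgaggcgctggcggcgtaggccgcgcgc
Txnrd1, chr10:82859079-82859157, plus strand: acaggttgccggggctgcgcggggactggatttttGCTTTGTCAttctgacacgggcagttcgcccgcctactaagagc
G6pdx, chrX:74428894-74428972, minus strand: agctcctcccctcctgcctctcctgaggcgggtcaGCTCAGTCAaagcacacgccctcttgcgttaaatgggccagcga
Me1, chr9:86695912-86695955, minus strand: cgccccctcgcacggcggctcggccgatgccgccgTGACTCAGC
Prdx1, chr4:116685431-116685509, plus strand: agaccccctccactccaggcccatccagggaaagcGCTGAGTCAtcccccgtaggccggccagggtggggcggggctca
Gstm5, chr3:107895777-107895853, plus strand: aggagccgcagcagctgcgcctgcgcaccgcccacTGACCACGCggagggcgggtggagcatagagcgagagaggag
Mgst1, chr6:138140436-138140514, plus strand: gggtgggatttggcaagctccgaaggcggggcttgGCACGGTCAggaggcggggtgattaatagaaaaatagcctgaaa
Sod1, chr16:90220671-90220749, plus strand: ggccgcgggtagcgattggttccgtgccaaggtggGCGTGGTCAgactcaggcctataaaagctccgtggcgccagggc

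In Me1 and Prdx1 the matched letters also overlapped AP-1 letters, and the Me1 match spanned the start site. In Srxn1 and Pgd the letters lay after the start site, and in Nfe2l2, which was called in neither fit, they lay before it. Of the genes in the table that were called higher without library 6, 7 of 9 held the element's letters, as did 3 of 9 of those called lower and 1 of 12 of those not called. Of these 7, Gclm, Txnrd1 and G6pdx were not called with all 12 libraries. Gclc, Gsr, Hmox1 and Sod3, also called higher without library 6, had no window, nor had Gsta4 and Abcc1, which were called lower. No test was made of these shares.

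All 37 genes passed the filter on low counts and were tested. With all 12 libraries, 9 were called higher with STEM (24.3%) and 8 lower (21.6%), beside 18.9% of the 14175 genes tested that were called higher and 17.4% that were called lower. The median log2 fold change over the 37 was 0.03, beside 0.01 over all genes tested. Without library 6, 13 were called higher (35.1%) and 11 lower (29.7%), beside 26.3% and 24.5% of 14267 genes, with a median of 0.04. The groups did not overlap for 8 of the 37 with all libraries (21.6%, beside 17.2% of all genes tested) and for 21 without library 6 (56.8%, beside 33.3%). The 17 genes called with all libraries were called in the same direction without library 6, which added 4 higher (Gclm, Txnrd1, G6pdx, Sod3) and 3 lower (Mgst3, Abcc1, Gpx4). With all libraries these shares were near those of all genes tested, and 20 of the 37 genes were not called. Without library 6, the 4 genes of glutathione synthesis and reduction and 3 of 5 NADPH genes were called higher, and neither regulator was called. With all libraries, 3 of the 4 and 2 of the 5 were called higher. Without library 6, 5 of 7 glutathione transferases and all 3 glutathione peroxidases were called lower. Of these, Mgst3 and Gpx4 were not called with all libraries. The transferases and peroxidases were not lists of their own. They are parts of the detoxification and peroxide removal lists, where 6 of 12 and 3 of 7 were called lower and 1 and 2 higher without library 6.

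**Figure D1:**
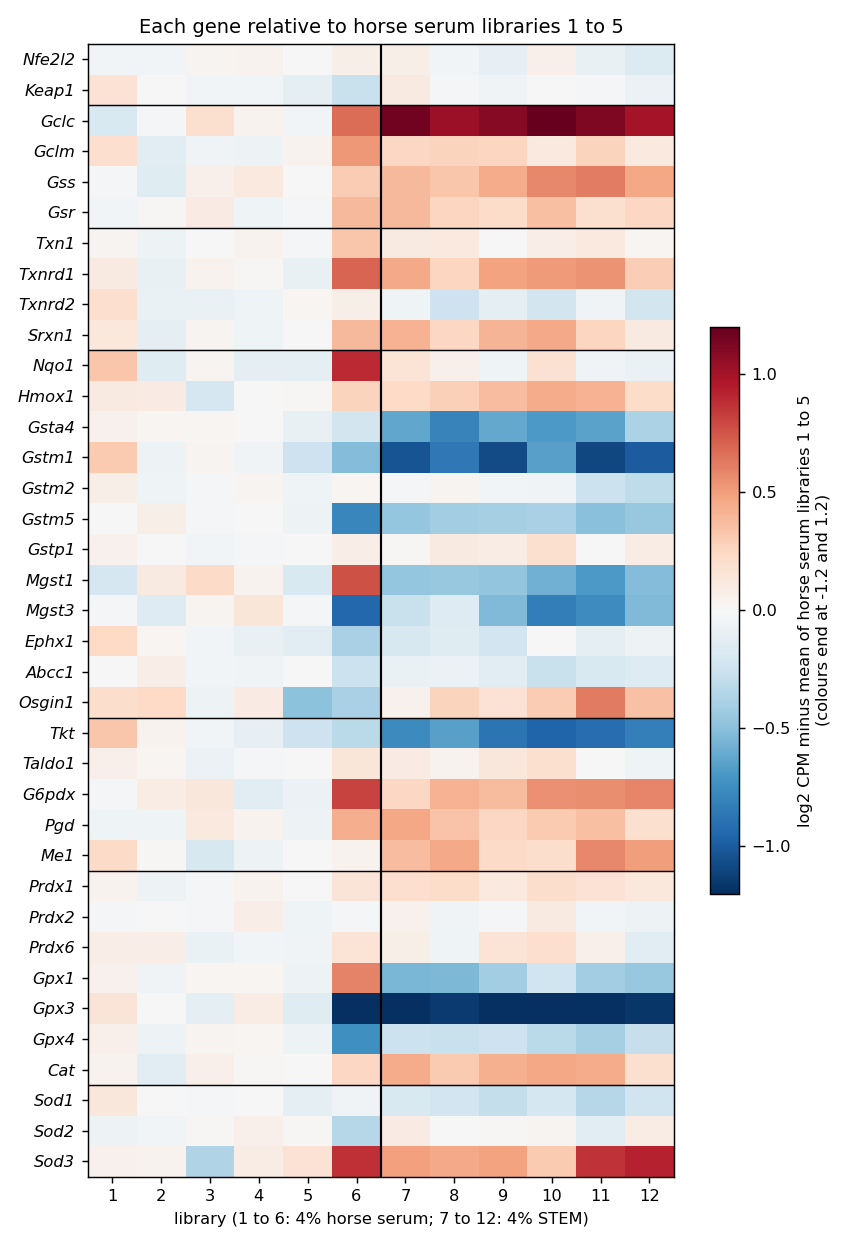
Level of each of the 37 genes in each library, as log2 CPM minus the mean of horse serum libraries 1 to 5, with genes ordered by role and the 12 libraries along the bottom (1 to 6 horse serum, 7 to 12 STEM). Gclc is red and Gpx3 is dark blue in all 6 STEM libraries, and library 6 is the horse serum column with the strongest colours, with 20 of the 37 genes above the other 5 (35.8% of all genes tested were) and 11 below (33.1% of all genes tested).

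**Figure D2:**
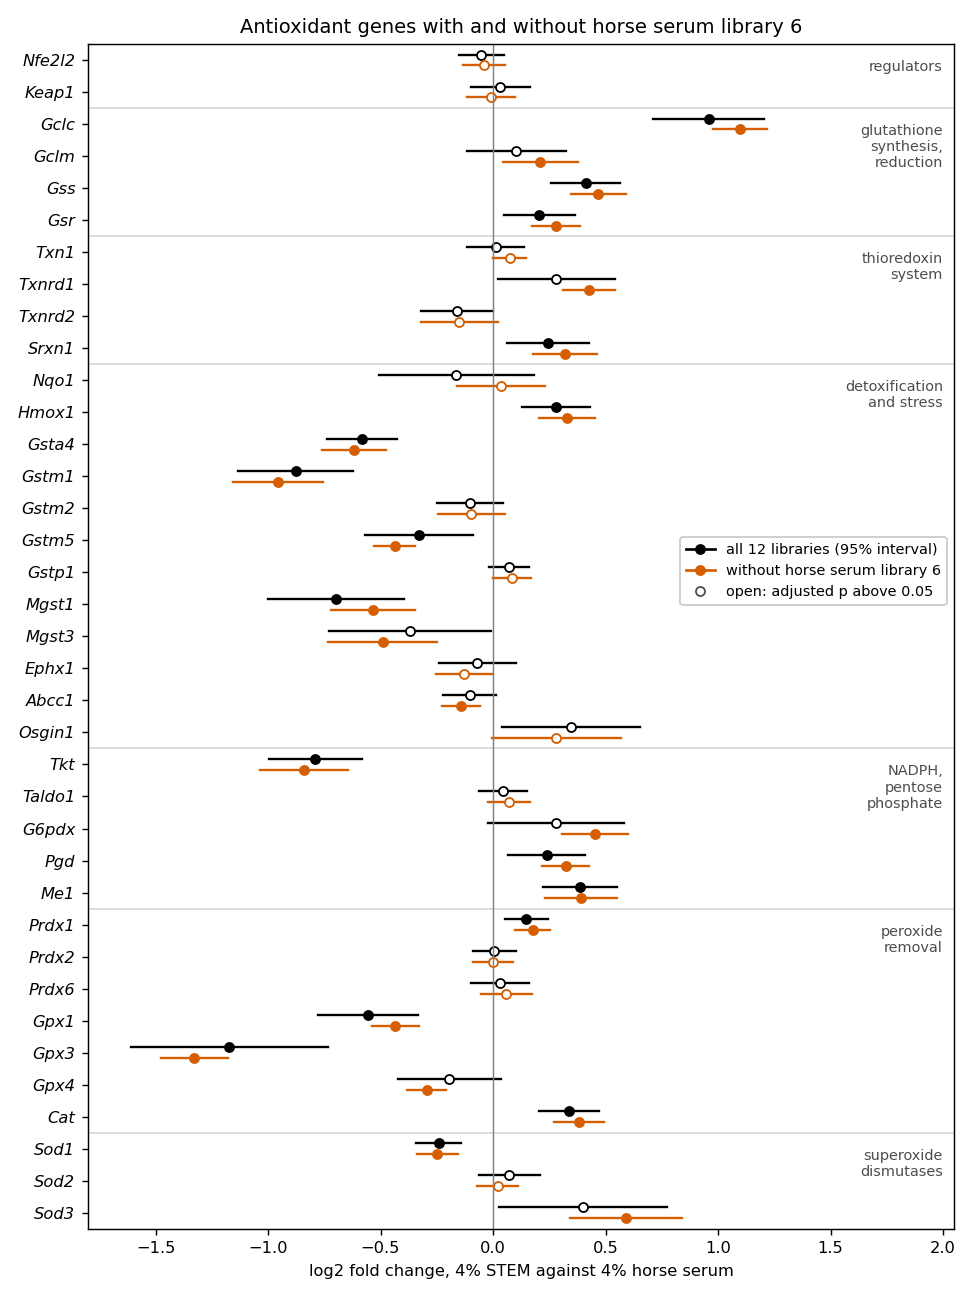
Log2 fold change of each gene with its 95% interval, for all 12 libraries (black) and without horse serum library 6 (orange), with open circles where the adjusted p was above 0.05. The values run from -1.17 (Gpx3) to 0.96 (Gclc) with all libraries and from -1.33 to 1.10 without library 6.

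Neither regulator was called in either fit. Nfe2l2 was at 90.1, 93.2 and 97.1 CPM (lowest, median and highest) in horse serum and at 82.3, 88.7 and 97.3 CPM with STEM. The groups overlapped, and the log2 fold change was -0.05 (95% interval -0.15 to 0.05, edgeR adjusted p = 0.413), and -0.04 without library 6. Keap1 was at 54.5, 64.2 and 74.2 CPM in horse serum and at 62.4, 64.7 and 70.8 CPM with STEM. Its groups overlapped too (log2 fold change 0.03, 95% interval -0.10 to 0.17, edgeR adjusted p = 0.712, and -0.01 without library 6). An antisense gene, Gm16754, shares 10.9% of Keap1's exon bases on the other strand. The strand setting of the counting was not given in the sources used here, so reads of such pairs cannot be told apart.

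The largest rise was that of Gclc, the catalytic subunit of glutamate-cysteine ligase, which makes the first and limiting step of glutathione synthesis. Gclc (chr9:77754535-77794485, GRCm38) was at 31.5, 36.0 and 56.9 CPM in horse serum and at 71.4, 77.0 and 81.6 CPM with STEM. All 6 STEM libraries were above all 6 horse serum libraries, of which library 6 was the highest. Gclc was 1.94-fold higher with STEM (log2 fold change 0.96 ± 0.12 SE, edgeR adjusted p = 3.11e-05) and 2.14-fold higher without library 6 (1.10 ± 0.058 SE, adjusted p = 4.38e-11). Gss, glutathione synthetase, which adds glycine in the second step, was at 42.8, 48.2 and 58.7 CPM in horse serum and at 59.5, 64.9 and 72.5 CPM with STEM. Its groups did not overlap either (log2 fold change 0.41 ± 0.072 SE, edgeR adjusted p = 0.000439, and 0.47 without library 6).

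Gclm encodes the modifier subunit that binds GCLC and raises its activity. It was at 8.80, 9.61 and 13.8 CPM in horse serum and at 10.4, 11.5 and 11.6 CPM with STEM. Library 6 was above every STEM library, and the log2 fold change was 0.10 (95% interval -0.12 to 0.33, edgeR adjusted p = 0.461). Without library 6 Gclm was called higher, with a log2 fold change of 0.21 ± 0.080 SE (edgeR adjusted p = 0.0353), and 4 of 6 STEM libraries were above all 5 horse serum libraries. Gsr, glutathione reductase, which returns oxidised glutathione to its reduced form with NADPH, was at 35.4, 36.6 and 48.1 CPM in horse serum and at 41.9, 43.7 and 48.1 CPM with STEM. The groups overlapped through library 6 alone. Its log2 fold change was 0.20 ± 0.074 SE (edgeR adjusted p = 0.0420) and 0.28 ± 0.051 SE without library 6 (adjusted p = 0.000145). The call for Gsr with all libraries was lost in 14 of 20 alternative analyses.

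Since GCLC and GCLM form 1 enzyme, the ratio of their RNAs was compared within each library. The log2 ratio of Gclc to Gclm was 1.90 ± 0.22 (SD, n = 6) in horse serum and 2.77 ± 0.10 (SD, n = 6) with STEM. The highest horse serum library was at 2.11 and the lowest STEM library at 2.64. The difference of 0.86 had an adjusted p of 0.00433 by an exact two-sided permutation test over 4 ratios, and 0.00216 is the smallest unadjusted p that 6 libraries against 6 can give. It was 0.89 without library 6. The log2 ratio of Nfe2l2 to Keap1 differed by -0.09 (adjusted p = 0.292, exact permutation test, n = 6 and 6) and by -0.03 without library 6. Horse serum library 1 had the lowest Nfe2l2 to Keap1 ratio, 0.29, and without it the difference was -0.14 (exact permutation p adjusted over the ratios = 0.0216). That was the largest difference among the runs leaving out 1 library at a time, so its p cannot be read as that of a single planned test. Library 6, kept in that run, had the highest ratio, 0.83.

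**Figure D3:**
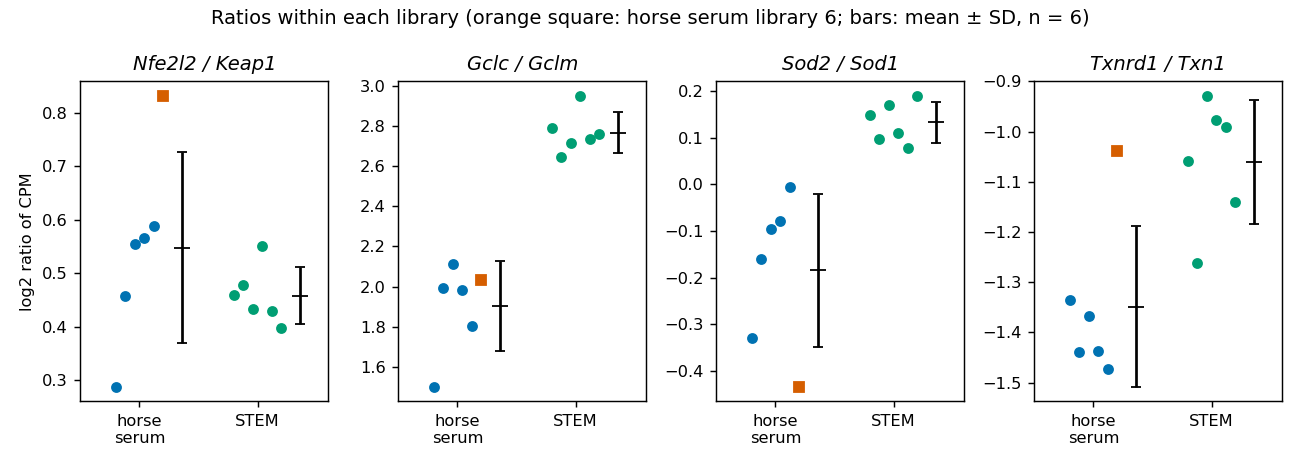
Log2 ratio of CPM of 2 genes within each library for horse serum and STEM, with a separate axis for each pair, horse serum library 6 as an orange square, and bars for mean ± SD (n = 6). The groups are apart for Gclc to Gclm and for Sod2 to Sod1, and they overlap for Nfe2l2 to Keap1 and for Txnrd1 to Txn1, where library 6 at -1.04 lies among the STEM libraries.

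In the thioredoxin system, Srxn1 was called higher in both fits and Txnrd1 without library 6, and thioredoxin itself was called in neither. Txnrd1, the cytosolic thioredoxin reductase, which is a selenoprotein, was at 63.2, 68.7 and 109 CPM in horse serum and at 80.6, 93.1 and 97.4 CPM with STEM. Library 6 was above every STEM library and the other 5 horse serum libraries were below every one. Txnrd1 was not called with all libraries (log2 fold change 0.28, 95% interval 0.02 to 0.54, edgeR adjusted p = 0.0831) and was called higher without library 6 (0.43 ± 0.055 SE, adjusted p = 3.15e-06). Srxn1, sulfiredoxin, which repairs overoxidised peroxiredoxins, was at 19.4, 21.1 and 27.3 CPM in horse serum and at 22.6, 26.4 and 28.5 CPM with STEM. The groups overlapped, with 3 STEM libraries above all horse serum libraries. Its log2 fold change was 0.25 ± 0.086 SE (edgeR adjusted p = 0.0355) and 0.32 without library 6 (adjusted p = 0.000628), and the call with all libraries was lost in 9 of 20 alternatives.

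Txn1, the thioredoxin that TXNRD1 reduces, was at 172 to 225 CPM in horse serum, with library 6 at the top, and at 179 to 194 CPM with STEM. Its log2 fold change was 0.01 (95% interval -0.11 to 0.14) with all libraries and 0.07 without library 6 (edgeR adjusted p = 0.0962). The log2 ratio of Txnrd1 to Txn1 was -1.35 ± 0.16 (SD, n = 6) in horse serum and -1.06 ± 0.12 (SD, n = 6) with STEM, a difference of 0.29 (adjusted p = 0.0144, exact permutation test) that was 0.35 without library 6. Txnrd2, the mitochondrial reductase, was at 10.6, 11.1 and 12.9 CPM in horse serum and at 9.42, 9.98 and 10.9 CPM with STEM. Its groups overlapped (log2 fold change -0.16, 95% interval -0.32 to -0.00, edgeR adjusted p = 0.106), and without library 6 the value was -0.15 (adjusted p = 0.133).

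Of the 12 detoxification genes, 1 was called higher (8.33%) and 4 lower (33.3%) with all libraries, beside 18.9% and 17.4% of all genes tested, with a median log2 fold change of -0.13. Without library 6, 1 was higher (8.33%) and 6 lower (50%), beside 26.3% and 24.5%, with a median of -0.14. The 1 that was higher was Hmox1, heme oxygenase 1, which breaks heme down to biliverdin, iron and carbon monoxide. Hmox1 was at 34.5, 41.3 and 47.8 CPM in horse serum and at 46.4, 49.95 and 54.1 CPM with STEM. Only library 6 of the horse serum group reached the STEM range. Its log2 fold change was 0.28 ± 0.071 SE (edgeR adjusted p = 0.00610) and 0.33 without library 6.

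Nqo1, a quinone reductase and one of the best known NRF2 targets, did not follow Hmox1. It was at 10.7, 11.6 and 22.0 CPM in horse serum and at 11.2, 11.9 and 13.5 CPM with STEM. Library 6 was the highest of the 12, and the STEM libraries lay within the range of horse serum libraries 1 to 5, whose highest was 14.9 CPM. The log2 fold change was -0.16 (95% interval -0.51 to 0.18, edgeR adjusted p = 0.456) with all libraries and 0.04 (95% interval -0.16 to 0.23, adjusted p = 0.770) without library 6.

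Glutathione transferases couple glutathione to electrophiles such as lipid aldehydes, and several of their genes were lower with STEM. Gstm1 (chr3:108012255-108017973), a cytosolic mu-class transferase, was at 18.0, 24.9 and 32.0 CPM in horse serum and at 12.1, 12.7 and 16.4 CPM with STEM. All 6 STEM libraries were below all 6 horse serum libraries. It was lower by a log2 fold change of -0.88 ± 0.12 SE (0.544-fold, edgeR adjusted p = 6.71e-05) and of -0.96 without library 6. Gsta4, an alpha-class transferase that acts on 4-hydroxynonenal, was at 21.8, 25.6 and 26.4 CPM in horse serum and at 14.7, 16.5 and 19.7 CPM with STEM. Again the groups did not overlap (log2 fold change -0.58 ± 0.073 SE, edgeR adjusted p = 3.04e-05, and -0.62 without library 6).

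Library 6 lay at opposite ends of the horse serum group for the membrane-bound transferases. Mgst1, microsomal glutathione transferase 1, was at 11.9, 14.4 and 23.2 CPM in horse serum, where library 6 was the highest, and at 8.51, 9.71 and 10.01 CPM with STEM. The groups did not overlap, and the log2 fold change was -0.70 ± 0.14 SE (edgeR adjusted p = 0.00143) and -0.53 without library 6 (adjusted p = 5.63e-05). Mgst3, its microsomal relative, was at 23.5, 44.6 and 49.8 CPM in horse serum, where library 6 was the lowest, and at 25.4, 31.2 and 40.3 CPM with STEM. Horse serum libraries 1 to 5 began at 40.5 CPM, just above the highest STEM library. Mgst3 was not called with all libraries (log2 fold change -0.37, 95% interval -0.73 to -0.01, edgeR adjusted p = 0.103) and was called lower without library 6 (-0.49 ± 0.11 SE, adjusted p = 0.00279).

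Gstm5, another mu-class gene, was at 29.2, 50.1 and 52.9 CPM in horse serum and at 35.5, 37.2 and 38.5 CPM with STEM. Library 6 was below every STEM library and the other 5 were above every one. Its log2 fold change was -0.33 ± 0.11 SE (edgeR adjusted p = 0.0322) and -0.44 ± 0.045 SE without library 6 (adjusted p = 1.72e-07), and the call with all libraries was lost in 12 of 20 alternatives. An antisense gene, 4933431E20Rik, shares 13.9% of Gstm5's exon bases on the other strand and had 16.4% of its counts. Gstm2 was at 17.3 to 18.8 CPM in horse serum and 14.5 to 18.3 CPM with STEM, and was not called (log2 fold change -0.10, 95% interval -0.25 to 0.04, edgeR adjusted p = 0.264, and -0.10 without library 6). The Gstm genes are closely similar copies whose reads the counting could have split unevenly. When the 8 Gstm rows were summed, the sum was lower with STEM over all 12 libraries (log2 fold change -0.41 ± 0.085 SE, edgeR adjusted p = 0.00153), and 52.9% of it came from Gstm5, 23.7% from Gstm1 and 22.2% from Gstm2.

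Of the other detoxification genes, Abcc1, which exports glutathione conjugates, was at 130, 154 and 165 CPM in horse serum and at 130, 141 and 149 CPM with STEM. It was not called with all libraries (log2 fold change -0.10, 95% interval -0.22 to 0.01, edgeR adjusted p = 0.155). Without library 6, its lowest horse serum library, it was called lower (-0.14 ± 0.040 SE, adjusted p = 0.00595). Gstp1, the pi-class transferase, was at 85.2 to 92.0 CPM in horse serum and 87.3 to 99.2 CPM with STEM (log2 fold change 0.07, 95% interval -0.02 to 0.16, and 0.08 without library 6). Ephx1, microsomal epoxide hydrolase, was at 60.7 to 93.5 and 67.7 to 79.2 CPM (-0.07, 95% interval -0.24 to 0.10, and -0.13 without library 6). Osgin1, an oxidative stress induced gene of low level, was at 3.20 to 5.33 and 4.65 to 6.92 CPM (0.35, 95% interval 0.04 to 0.65, edgeR adjusted p = 0.0721, and 0.28 without library 6). None of these last 3 was called in either fit.

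NADPH drives both glutathione reductase and thioredoxin reductase, and its sources did not move together. The oxidative branch of the pentose phosphate pathway makes NADPH through G6PDX and PGD. G6pdx was at 19.4, 21.9 and 37.5 CPM in horse serum and at 25.3, 29.8 and 31.9 CPM with STEM. Library 6 was above every STEM library and the other 5 were below every one. The log2 fold change was 0.28 (95% interval -0.02 to 0.58, edgeR adjusted p = 0.141) with all libraries, and without library 6 G6pdx was called higher (0.45 ± 0.071 SE, adjusted p = 2.64e-05). Ikbkg shares 13.6% of G6pdx's exon bases on the other strand and had 333% of its counts. Pgd was at 68.9, 71.5 and 97.2 CPM in horse serum and at 81.8, 89.9 and 98.9 CPM with STEM. Library 6 alone overlapped the STEM range. Its log2 fold change was 0.24 ± 0.080 SE (edgeR adjusted p = 0.0293) and 0.32 without library 6 (adjusted p = 2.39e-05), and the call with all libraries was lost in 9 of 20 alternatives.

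The non-oxidative branch, which rearranges the sugars without making NADPH, went the other way or was not called. Tkt (chr14:30548359-30574720), transketolase, was at 65.1, 77.8 and 103 CPM in horse serum and at 41.7, 45.1 and 51.7 CPM with STEM. All STEM libraries were below all horse serum libraries, and library 6 was the lowest of the latter. Tkt was 0.579-fold of horse serum (log2 fold change -0.79 ± 0.096 SE, edgeR adjusted p = 2.79e-05) and -0.84 on the log2 scale without library 6. Taldo1, transaldolase, was at 109 to 126 CPM in horse serum and 110 to 130 CPM with STEM and was not called (log2 fold change 0.05, 95% interval -0.06 to 0.15, and 0.07 without library 6). Me1, cytosolic malic enzyme, which makes NADPH from malate, was at 29.2, 33.6 and 39.1 CPM in horse serum and at 38.5, 44.4 and 49.6 CPM with STEM. It was higher in 5 of 6 STEM libraries than in any horse serum library, and library 6 lay within the other horse serum values. Me1 was higher by a log2 fold change of 0.38 ± 0.077 SE (edgeR adjusted p = 0.00128) and 0.39 without library 6.

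Of the 7 peroxide removal genes among the 37, 2 were called higher (28.6%) and 2 lower (28.6%) with all libraries, beside 18.9% and 17.4% of all genes tested. Without library 6, 2 were higher (28.6%) and 3 lower (42.9%), beside 26.3% and 24.5%. Cat and Prdx1 were the 2 that were higher, and the selenoproteins Gpx1, Gpx3 and Gpx4 were each lower in at least 1 fit. Relatives outside the 37, named here after their values were seen, did not all follow the same directions. Without library 6, Prdx5 was called lower (log2 fold change -0.20, edgeR adjusted p = 0.000459), Prdx4 higher (0.14, adjusted p = 0.0329) and Gpx8 lower (-0.13, adjusted p = 0.0183), and the rare Gpx7, at 0.154 to 0.544 CPM in horse serum and 0.530 to 1.47 CPM with STEM, was called higher (1.13, adjusted p = 0.00621). With all libraries, Prdx5, Prdx4 and Gpx8 were not called (-0.14, 0.12 and -0.08) and Gpx7 did not pass the filter. The largest fall among the 37 genes was that of Gpx3 (chr11:54902453-54910377), the secreted glutathione peroxidase. It was at 44.0, 106 and 123 CPM in horse serum and at 39.2, 42.8 and 49.5 CPM with STEM. Library 6, the lowest, lay among the STEM libraries, and the other 5 were at 99.7 CPM or more. The log2 fold change was -1.17 ± 0.20 SE (0.443-fold, edgeR adjusted p = 0.000767) and -1.33 ± 0.069 SE without library 6 (0.399-fold, adjusted p = 4.99e-10).

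Gpx1, the cytosolic glutathione peroxidase, was at 92.0, 98.0 and 146 CPM in horse serum and at 65.7, 71.1 and 81.6 CPM with STEM. The groups did not overlap although library 6 was here the highest. The log2 fold change was -0.55 ± 0.10 SE (edgeR adjusted p = 0.000896) and -0.43 without library 6 (adjusted p = 8.34e-07). Gpx4, which reduces lipid peroxides in membranes and holds off ferroptosis, was at 344, 568 and 601 CPM in horse serum and at 436, 476 and 483 CPM with STEM. Library 6 was below every STEM library and the other 5, at 550 CPM or more, were above every one. Gpx4 was not called with all libraries (log2 fold change -0.19, 95% interval -0.42 to 0.03, edgeR adjusted p = 0.172) and was called lower without library 6 (-0.29 ± 0.041 SE, adjusted p = 8.93e-06). Adding the counts of its pseudogene Gpx4-ps2 left the value with all libraries at -0.19.

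Cat, catalase, which splits hydrogen peroxide without a reductant, was at 54.1, 60.0 and 70.0 CPM in horse serum and at 67.1, 79.6 and 81.2 CPM with STEM. Library 6 was the highest horse serum library and overlapped 1 STEM library. Catalase RNA was higher by a log2 fold change of 0.34 ± 0.063 SE (edgeR adjusted p = 0.000750) and 0.38 without library 6. Prdx1, a cytosolic peroxiredoxin that uses thioredoxin, was at 292, 308 and 339 CPM in horse serum and at 330, 346 and 354 CPM with STEM. Its groups overlapped through library 6 (log2 fold change 0.15 ± 0.044 SE, edgeR adjusted p = 0.0167, and 0.18 without library 6). Prdx2 was at 611 to 669 CPM in horse serum and 604 to 682 CPM with STEM (log2 fold change 0.01, 95% interval -0.09 to 0.10, and 0.00 without library 6), and Prdx6, which uses glutathione, was at 122 to 144 and 118 to 148 CPM (0.03, 95% interval -0.10 to 0.16, and 0.06 without library 6). Neither was called in either fit.

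The 3 superoxide dismutases, each from a different compartment, were not called alike. Sod1, the cytosolic copper-zinc enzyme, was at 125, 134 and 148 CPM in horse serum and at 106, 115 and 119 CPM with STEM. The groups did not overlap, and library 6 lay within the other horse serum values (log2 fold change -0.24 ± 0.046 SE, edgeR adjusted p = 0.000861, and -0.25 without library 6). Sod2, the mitochondrial manganese enzyme, was at 97.2, 122 and 128 CPM in horse serum and at 112, 125 and 132 CPM with STEM, and was not called (log2 fold change 0.07, 95% interval -0.06 to 0.21, and 0.02 without library 6). The log2 ratio of Sod2 to Sod1 was -0.18 ± 0.16 (SD, n = 6) in horse serum and 0.13 ± 0.045 (SD, n = 6) with STEM. The ratio was higher in each STEM library than in any horse serum library (difference 0.32, adjusted p = 0.00433, exact permutation test, and 0.27 without library 6). Sod3, the extracellular enzyme, was at 6.56, 8.82 and 15.4 CPM in horse serum and at 10.5, 11.8 and 16.0 CPM with STEM. Library 6 lay among the STEM libraries and the other 5 were below all of them. Sod3 was not called with all libraries (log2 fold change 0.40, 95% interval 0.03 to 0.77, edgeR adjusted p = 0.0884) and was called higher without library 6 (0.59 ± 0.12 SE, adjusted p = 0.000430).

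**Figure D4:**
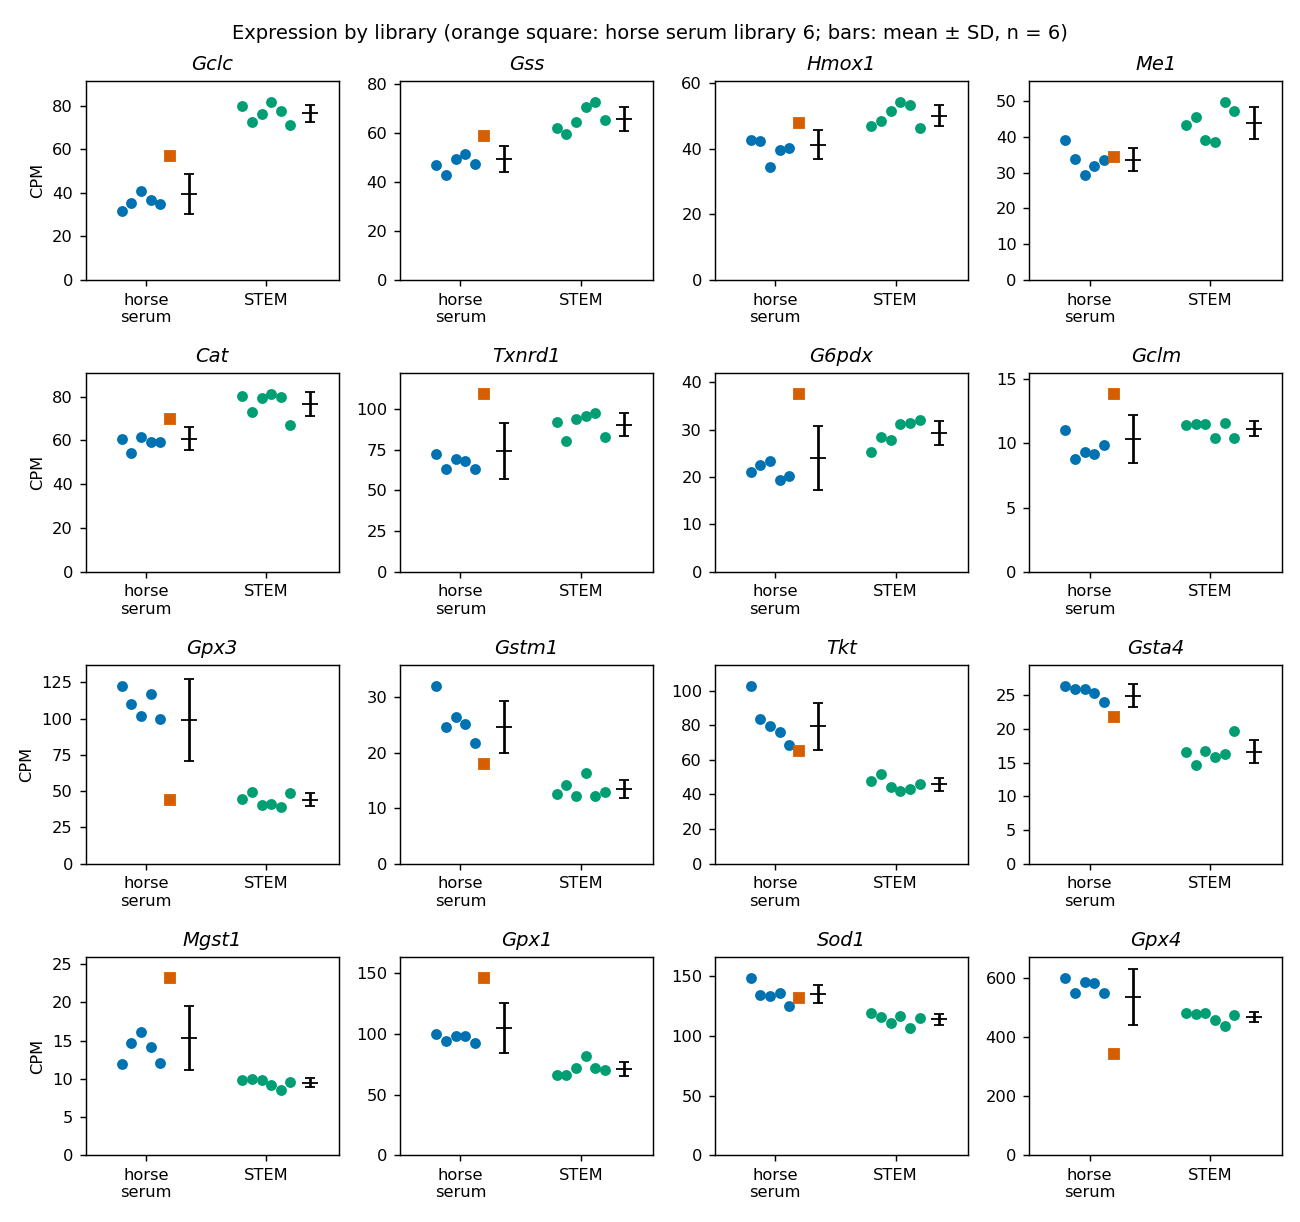
CPM in each library for 16 of the genes, with horse serum libraries 1 to 5 in blue, library 6 as an orange square, STEM libraries in green, and bars for mean ± SD (n = 6). Gclc is at 31.5 to 56.9 CPM in horse serum and 71.4 to 81.6 with STEM, and library 6 lies beyond the STEM points for Txnrd1, G6pdx, Gclm and Gpx4.

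The levels of the 37 genes spanned a wide range when divided by gene length. In CPM per kilobase of annotated exon, the median horse serum level was highest for Gpx4 (329), Prdx2 (204), Txn1 (173) and Prdx1 (101), and these 4 were also highest with STEM, at 276, 203, 181 and 114. It was lowest for Gclm (1.53), Osgin1 (1.71), Sod3 (2.36) and Txnrd2 (2.52). Gclc was at 9.57 CPM per kilobase in horse serum and 20.4 with STEM, against 1.53 and 1.83 for Gclm. Nfe2l2 was at 24.6 and 23.4 CPM per kilobase and Keap1 at 13.7 and 13.8. These levels depend on the annotated exon length, which may exceed that of the transcript used.

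Other genes of the same systems, 141 in 7 lists chosen by function, were read in the same fits. Of the 112 that were tested, 20 were called higher with STEM (17.9%) and 30 lower (26.8%), beside 18.9% and 17.4% of all genes tested. Without library 6, 29 of 113 were higher (25.7%) and 39 lower (34.5%), beside 26.3% and 24.5%. Of 10 tested partners and competitors of NRF2, 1 was called with all libraries. That was Maff, a small MAF partner, at 13.4, 46.2 and 50.5 CPM in horse serum and 20.6, 23.4 and 30.6 CPM with STEM. Library 6 was the lowest of all 12 (log2 fold change -0.75 ± 0.26 SE, edgeR adjusted p = 0.0429, and -0.94 without library 6). Without library 6, Mafg was called higher by 0.12 and Rbx1, the RING partner of CUL3, lower by a log2 fold change of -0.15. Bach1, a repressor at the same DNA element, was at 71.1 to 87.3 CPM in horse serum and 75.9 to 86.2 CPM with STEM and was not called in either fit.

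Of 20 tested glutathione genes outside the 37, 4 were called higher (20%) and 4 lower (20%), beside 18.9% and 17.4% of all genes tested. Without library 6, 5 of 21 were higher (23.8%) and 8 lower (38.1%), beside 26.3% and 24.5%. Chac1, which degrades glutathione, was higher (log2 fold change 0.52 ± 0.074 SE, edgeR adjusted p = 8.16e-05, and 0.55 without library 6). Oplah, which opens the 5-oxoproline ring (-0.38, edgeR adjusted p = 0.000816, and -0.41 without library 6), and Glrx, cytosolic glutaredoxin (-0.50, adjusted p = 0.00228, and -0.58), were lower. Slc7a11, the cystine importer that feeds glutathione synthesis, is named after its values were seen. It was at 3.87, 5.00 and 10.6 CPM in horse serum, with library 6 the highest, and at 9.36, 11.6 and 13.8 CPM with STEM, and it was higher by 1.02 ± 0.22 SE (edgeR adjusted p = 0.00260) and by 1.31 without library 6.

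Of 17 tested thioredoxin and peroxiredoxin genes outside the 37, 5 were called higher (29.4%) and 2 lower (11.8%), beside 18.9% and 17.4% of all genes tested. Without library 6, 6 were higher (35.3%) and 4 lower (23.5%), beside 26.3% and 24.5%. The sestrins Sesn1 and Sesn2, which aid peroxiredoxin repair and restrain mTORC1, moved in opposite directions. Sesn1 was at 67.5, 74.8 and 80.4 CPM in horse serum and 38.5, 44.3 and 48.0 CPM with STEM (log2 fold change -0.75 ± 0.060 SE, edgeR adjusted p = 4.69e-07, and -0.77 without library 6), and Sesn2 was higher (0.66 ± 0.082 SE, adjusted p = 2.55e-05, and 0.66). Neither pair of groups overlapped. Txn2, mitochondrial thioredoxin, was higher (0.37, edgeR adjusted p = 0.000466, and 0.37 without library 6). The second gene called lower, named here after its values were seen, was Txnip, which binds and inhibits thioredoxin. It was at 120, 296 and 314 CPM in horse serum, with library 6 the lowest, and at 114, 126 and 142 CPM with STEM (log2 fold change -1.08 ± 0.19 SE, edgeR adjusted p = 0.000942, and -1.23 without library 6).

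Of the 15 other NADPH genes, 4 were called higher (26.7%) and 5 lower (33.3%), beside 18.9% and 17.4% of all genes tested. Without library 6, 5 were higher (33.3%) and 6 lower (40%), beside 26.3% and 24.5%. The 3 with the lowest p-values were the isocitrate dehydrogenases Idh2 (mitochondrial, log2 fold change -0.41, edgeR adjusted p = 2.39e-05, and -0.42 without library 6) and Idh1 (cytosolic, -0.32, adjusted p = 7.51e-05, and -0.29) and the mitochondrial malic enzyme Me3 (-0.85, adjusted p = 0.000282, and -0.94). All 3 were lower in each STEM library than in any horse serum library, whereas the cytosolic malic enzyme Me1 was higher. Of 26 tested genes of quinone, carbonyl and heme detoxification, 1 was called higher (3.85%) and 9 lower (34.6%), beside 18.9% and 17.4%. Without library 6, 6 were higher (23.1%) and 9 lower (34.6%), beside 26.3% and 24.5%. Ptgr1, prostaglandin reductase 1 (-0.45, and -0.41 without library 6), Akr1c14, an aldo-keto reductase (-1.95, and -1.76, at 0.135 to 0.734 CPM with STEM), and Blvrb, biliverdin reductase B (-0.51, and -0.58), were lower. Of the genes of superoxide and peroxide sources, 5 of 15 were tested, of which 1 was called higher (20%) and 2 lower (40%) in both fits. The shares of all genes tested were again 18.9% and 17.4%, and 26.3% and 24.5% without library 6. Xdh, xanthine dehydrogenase (-0.66, edgeR adjusted p = 0.000489, and -0.55 without library 6), and Maoa, monoamine oxidase A (-0.23 in both fits), were lower, and Ncf1, an NADPH oxidase subunit, was higher at 1.89 to 3.81 CPM against 1.39 to 2.12 (0.84, and 0.83).

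The list of selenoprotein genes and their synthesis factors had 5 called higher (26.3%) and 7 lower (36.8%) of 19 tested. Of all genes tested, 18.9% were called higher and 17.4% lower. Without library 6, 5 were higher (26.3%) and 8 lower (42.1%), beside 26.3% and 24.5% of all genes tested. Selenow, a small muscle selenoprotein, had the lowest p-value. It was at 37.3, 44.1 and 54.96 CPM in horse serum and at 15.0, 19.1 and 22.0 CPM with STEM, with no overlap (log2 fold change -1.25 ± 0.10 SE, edgeR adjusted p = 7.34e-07, and -1.30 without library 6). Selenop, the selenium carrier, was lower (-0.66, adjusted p = 2.81e-06, and -0.66), and Selenos, which acts in protein removal from the endoplasmic reticulum, was higher (0.47, adjusted p = 2.40e-05, and 0.49). Selenoproteins carry selenocysteine, which is built and inserted by a dedicated set of factors. Among these factors, Secisbp2, Sephs1 and Sephs2 were called higher and Pstk and Eefsec lower, in both fits.

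Because Gpx1, Gpx3, Gpx4, Txnrd1 and Txnrd2 are themselves selenoproteins, the selenoprotein genes of all lists were set side by side, a grouping made after their values were seen and given without a test. Of 20 tested, 4 were called higher and 7 lower with all libraries, where 18.9% and 17.4% of all genes tested were called, and 5 higher and 9 lower without library 6, where 26.3% and 24.5% were. The higher calls were thus near the share of all genes. Gpx3, Selenow and Selenoh had the 3 lowest log2 fold changes in both fits, between -1.33 and -1.01. The 3 thioredoxin reductases did not share this direction, at 0.28 (Txnrd1), -0.16 (Txnrd2) and 0.19 (Txnrd3) with all libraries and at 0.43, -0.15 and 0.19 without library 6.

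**Figure D5:**
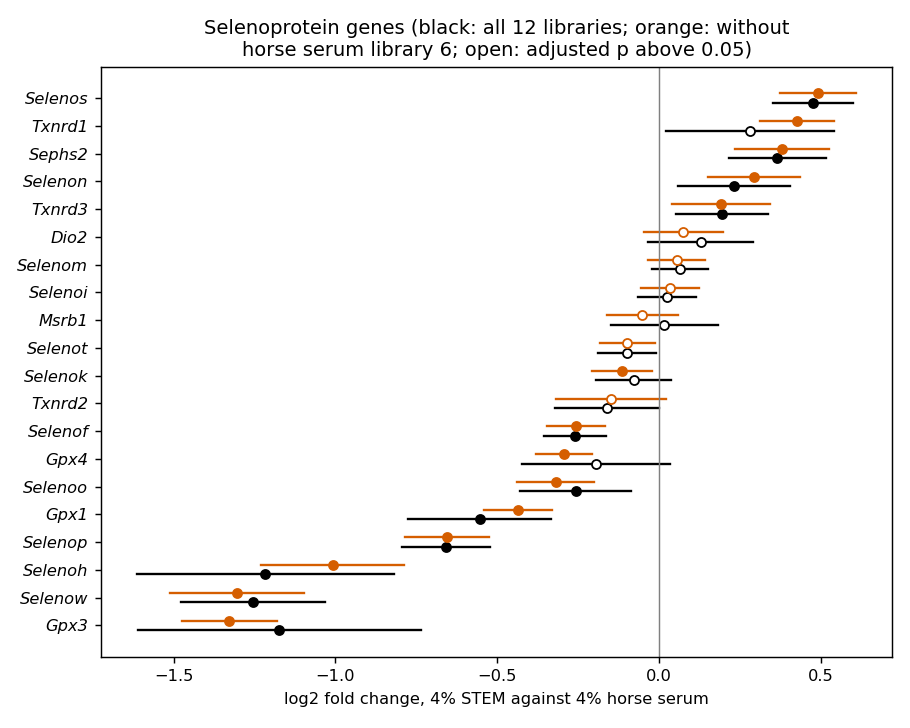
Log2 fold change with 95% interval for 20 selenoprotein genes, in black for all 12 libraries and in orange without horse serum library 6, with open circles where the adjusted p was above 0.05. Values run from -1.25 (Selenow) to 0.47 (Selenos) with all libraries, and Gpx4, Txnrd1 and Selenok are the genes filled in orange only.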

How the data were processed

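The authors sequenced rRNA-depleted, stranded libraries of total RNA and deposited raw read counts per gene for all 12 of them, with no normalization. The submitters' processing notes name STAR 2.7.3a, featureCounts 1.6.3, DESeq2 1.26.0 and genome build GRCm38, and the strand setting and annotation release are not given in the sources used here. Groups came from the sample titles. All columns of the count table were used. GENCODE (GRCm38) gave symbols and coordinates for 55227 of the 55487 genes.

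Counts were tested with edgeR 4.0.16 (filterByExpr, TMM, robust quasi-likelihood fit, group as the only term) in R 4.3.3, with Benjamini-Hochberg adjustment over all genes tested, once with all 12 libraries and once with 11, leaving out horse serum library 6. SE is the log2 fold change divided by the square root of F, and intervals are 95%. Ratios used log2 CPM with a prior count of 2. DESeq2 1.42.0 and limma 3.58.1 were alternatives, beside other normalizations, filters, an adjusted p of 0.01, summed gene copies and leaving out each library. The scripts were tested on simulated data with known changes. The 37 genes, the other lists and the tests were chosen with earlier results of these data known, and the AP-1 search was added after the values were seen. Genes of the 37 called in either fit, the 3 lowest p-values of each other list and every called NRF2 partner are named. Protein sequences are not shown here.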

Additional observations from a re-analysis of the deposited data

Results flagged for a closer look

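In each group of 6 libraries, the gap between the highest or lowest library and its neighbour was compared with the whole range of the group (Dixon's critical value 0.625). Of 82 groups examined (37 genes and 4 ratios in both conditions), 16 were past it. Chance gives about 1 in 20 for a single group, but these groups share the same libraries, so the count cannot be read against that rate. Library 6 was already left out in the second fit, and the share of all genes past the limit was not computed. All 16 were horse serum library 6, which was the highest in 11 and the lowest in 5.

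Among these 16, library 6 stood high for some genes of glutathione, thioredoxin and NADPH supply. It was at 56.9 CPM for Gclc, 48.1 for Gsr, 225 for Txn1, 109 for Txnrd1, 37.5 for G6pdx and 97.2 for Pgd. Other genes of these systems, not past the limit, differed. Library 6 was below horse serum libraries 1 to 5 for Tkt (65.1 CPM) and within their range for Me1 and Txnrd2. It was also high for Nqo1 (22.0 CPM), Mgst1 (23.2 CPM), Gpx1 (146 CPM) and Sod3 (15.4 CPM), and its log2 ratio of Txnrd1 to Txn1 was -1.04. It stood low for Gstm5 (29.2 CPM), Mgst3 (23.5 CPM), Gpx3 (44.0 CPM), Gpx4 (344 CPM) and Sod2 (97.2 CPM). The same library had the lowest summed myotube markers of the 12 (12884 CPM) and the highest summed proliferation markers (1286 CPM), and their part in these values was not tested.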

How the results depend on the processing

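No called value changed direction under any alternative tried. At an adjusted p of 0.01, 3266 genes were called in place of 5155, and 5 of the 37 antioxidant genes were called higher in place of 9. Leaving out 1 library at a time gave 4459 to 7245 genes called, 6 to 13 antioxidant genes higher and 7 to 11 lower, and 41 to 68 genes called of the other lists, with the highest values in each case without horse serum library 6. The log2 ratio differences ranged from 0.78 to 0.90 (Gclc to Gclm), -0.14 to -0.033 (Nfe2l2 to Keap1), 0.27 to 0.35 (Sod2 to Sod1) and 0.26 to 0.35 (Txnrd1 to Txn1). Of the 17 called genes, 12 were called under all alternatives, and Gsr, Srxn1, Gstm5, Pgd and Prdx1 lost the call under 1 or more. With quality weights per library, 7320 genes were called, with 13 antioxidant genes higher and 11 lower. Without library 6, scaling to total counts raised the higher calls to 16. No paired analysis was possible because the groups share no replicate numbers. The effect of depth on these calls was not tested.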
